A study of Mus musculus with 7 samples.

Results

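The interferon regulatory factors (IRFs) are transcription factors that share a DNA-binding domain, and 8 of their genes were described here, Irf1, Irf2, Irf3, Irf4, Irf5, Irf7, Irf8 and Irf9. They were taken as the rows of the deposited expression table that carry these symbols, 8 of 40743 genes in all, and every one of them was among the 17496 genes tested. Retinal microglia, the resident macrophages of the neuroretina, had been sorted from pooled retinae of Irf8-/- Cx3cr1GFP/+ mice on a C57BL/6J background devoid of the Crb1 mutation. Of the 7 libraries, 3 came from mice without laser and 4 from mice 7 days after laser injury with 3 to 6 spots per eye, the model of choroidal neovascularisation used by the study. Samples were pooled from 3 to 4 mice and held on average 10000 cells, gated as CD45low CD11b+ Cx3cr1-GFP+ Ly6C- Ly6G-. Both groups therefore share the germline Irf8-/- genotype, which is not limited to microglia, and a GFP allele in place of 1 copy of Cx3cr1. For the lasered mice only the central 70% of the retina was used, so that retinal region and laser injury cannot be told apart. The study describes the mice as adult, their exact age is not given in the sources used here, and libraries from wild-type mice were not analysed here.

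IRFs bind short GAAA-containing elements, among them elements in promoters of interferons and of genes that interferons switch on. Irf3 and Irf7 are activated by phosphorylation downstream of receptors for viral and bacterial nucleic acids and drive the type I interferon genes. Secreted type I interferon signals through its receptor to STAT factors, which join Irf9 in the complex ISGF3, and ISGF3 acts on the interferon-stimulated response element (ISRE) of its targets. Irf1 activates and Irf2 mainly represses overlapping sets of promoters, Irf5 induces inflammatory cytokines downstream of Toll-like receptors, and Irf4 and Irf8 bind composite elements together with the ETS factor PU.1 (Spi1) and set myeloid and lymphoid identity. Irf8 is required for the normal development and maturation of microglia.

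The promoters of the IRF genes carry some of the same elements, and the stretches that hold them are shown because the family is in part its own target. RefSeq promoters (GRCm38.p6, 250 bases before to 50 after the start site) were searched on both strands for the ISRE letters GAAANNGAAA, for the interferon gamma activation site (GAS) letters TTCNNNGAA, and for the composite ETS and IRF letters GGAANNGAAA (EICE). All 8 genes had an entry. Among all 27025 genes with an entry, 3.99% held the ISRE letters, 9.55% the GAS letters and 3.16% the EICE letters in at least 1 promoter. Irf2 held an ISRE match 241 bases before its start site together with a GAS match and an EICE match that overlaps the ISRE, Irf1 held 1 GAS match 90 bases before its start site, and Irf8 held 2 GAS matches that begin 171 and 153 bases before its start site. No such letters were found in these windows of Irf3, Irf4, Irf5, Irf7 and Irf9. Matches are in capitals below, 5′ to 3′ on the strand of the gene, at chr8:46739495-46739549 (plus strand) for Irf2, chr11:53769904-53769952 (plus strand) for Irf1 and chr8:120736167-120736233 (plus strand) for Irf8. The 120 bases before the start site of Irf7, the member with the largest change, are given for comparison from chr7:141266425-141266544 (minus strand), with no capitals because no match was found.
Irf2: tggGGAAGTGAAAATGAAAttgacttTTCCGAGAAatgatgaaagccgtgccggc
Irf1: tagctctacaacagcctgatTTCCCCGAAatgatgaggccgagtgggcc
Irf8: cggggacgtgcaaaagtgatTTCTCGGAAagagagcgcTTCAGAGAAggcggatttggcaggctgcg
Irf7: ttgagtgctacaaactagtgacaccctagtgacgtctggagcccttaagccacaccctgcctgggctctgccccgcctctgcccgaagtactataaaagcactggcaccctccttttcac

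Values are counts per 1000000 reads listed to genes (CPM), and the libraries held 20427558 to 36022954 reads without laser and 37133297 to 45919042 after laser. Every value corresponded to a whole number of reads, so that 3 reads, the least taken as detected, were worth 0.0653 to 0.147 CPM. In a limma fit of log2(CPM + 1) across all tested genes, with Benjamini-Hochberg adjustment, 1213 of 17496 genes (6.93%) had an adjusted p under 0.05 between lasered and unlasered libraries, 676 higher (3.86%) and 537 lower (3.07%) after laser. Fold changes below are on this log2(CPM + 1) scale, which understates changes of low genes. Nothing in the labels says more about the independence of the libraries than that they are separate samples of pooled mice, so the p-values measure the spread between these pools. In sorted bulk RNA, a change in the number of cells of 1 type and a change in RNA per cell cannot be told apart.

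Irf8, the targeted gene, was read in all 7 libraries labelled Irf8 KO, so the libraries are named by their label throughout. It had 529.9, 489 and 507 CPM in unlasered libraries 1 to 3, corresponding to 10824, 16739 and 18278 reads, and 463, 465, 475 and 582 CPM in lasered libraries 1 to 4. Both groups overlapped, and lasered library 4 was the highest of all. By mean CPM, with no division by length, Irf8 stood at rank 202 of 40743 genes without laser and at rank 223 after laser. The sources used here do not state which part of Irf8 is deleted, and 1 value per gene hides where along the gene its reads lie, so these reads neither check nor contradict the loss of the protein. The difference after laser was -0.04 in the log2 fold change (95% interval -0.31 to 0.23, limma adjusted p = 0.875), and its sign turned to 0.04 when libraries were scaled by the median of ratios. The gene (ENSMUSG00000041515, chr8:120736358-120756694, plus strand) is listed jointly with Gm20388, a gene model whose span covers Irf8 on the same strand and whose exons share 0 bases with it.

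**Figure D1:**
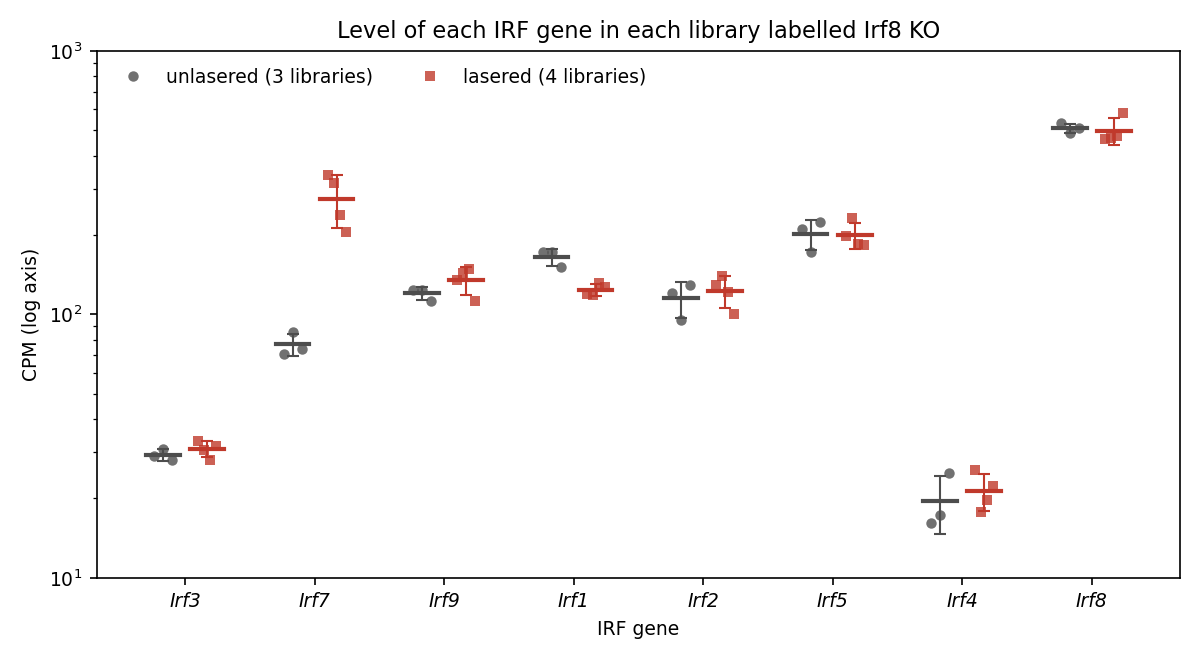
Level of the 8 IRF genes in CPM on a log axis, 1 point per library labelled Irf8 KO, 3 unlasered in grey and 4 lasered in red, with the mean as a bar and the SD as whiskers. The 4 lasered points of Irf7, from 206 to 337 CPM, lie above all 3 unlasered points, from 70.9 to 85.5 CPM, and the lasered points of Irf1, from 118 to 132 CPM, lie below the unlasered ones, from 151 to 172 CPM.

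Of the factors that induce interferon, Irf7 rose after laser injury and Irf3 did not pass the test. Irf7, the factor that is itself induced by interferon and amplifies interferon production, had 70.9, 85.5 and 74.1 CPM in unlasered libraries 1 to 3. After laser it had 337, 316, 239 and 206 CPM in libraries 1 to 4. Every lasered library was above every unlasered one, and lasered libraries 1 and 2 were higher than 3 and 4. The mean went from 76.8 ± 7.65 CPM (SD, n = 3) to 275 ± 62.2 CPM (SD, n = 4), a log2 fold change of 1.80 ± 0.18 (SE, limma adjusted p = 0.00265), or 3.48-fold with a 95% interval of 2.61 to 4.64. Irf7 was the 1 member of 8 past the threshold, beside 6.93% of all tested genes, and ranked 25 of 17496 by p. It was also among the 54 genes (0.309%) that met thresholds adapted from the study's methods, a log2 fold change over 1.5 in size, an unadjusted p under 0.05 and 100 CPM or more as the mean of 1 of the groups, applied here to the limma fit where the study used DESeq2 and does not say whether its p is adjusted. By mean CPM it moved from rank 2531 to rank 491 of 40743 genes. Relative to the other members Irf7 also had the largest spread between lasered libraries, with a coefficient of variation of 22.7% against a median of 16.6% over all tested genes.

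Irf3, which is present in most cells before stimulation and is activated without new synthesis, had 29.1, 30.9 and 28 CPM without laser and 33, 30.5, 28.1 and 31.7 CPM after laser. The ranges overlapped and the means were 29.3 ± 1.48 and 30.8 ± 2.09 CPM (SD, n = 3 and 4). The log2 fold change was 0.07 with a 95% interval from -0.23 to 0.37 (limma adjusted p = 0.805), an interval whose upper bound is a 1.29-fold difference. Irf3 and Irf7 each overlap a gene on the other strand in their exons, Bcl2l12 by 88 bases and Phrf1 by 45 bases, and because the library kit does not mark strand, reads from those bases cannot be assigned. Irf7 (ENSMUSG00000025498) lies at chr7:141262706-141266481 on the minus strand and Irf3 (ENSMUSG00000003184) at chr7:44997648-45002848 on the plus strand.

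**Figure D2:**
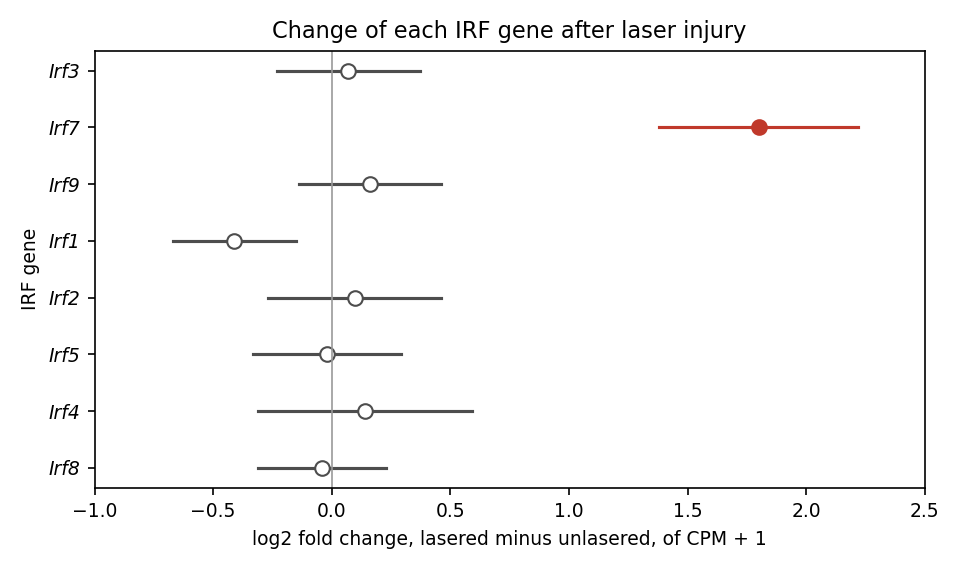
Log2 fold change of each IRF gene, lasered minus unlasered, on the log2(CPM + 1) scale from limma, with 95% intervals as lines. The filled red point is Irf7 at 1.80, the 1 member with an adjusted p under 0.05, and of the open points Irf1 at -0.41 is the 1 whose interval does not reach 0.

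Irf9, the DNA-binding subunit of ISGF3, had 124, 124 and 112 CPM without laser and 135, 144, 148 and 112 CPM after laser. Lasered libraries 1 to 3 were above the unlasered range and lasered library 4 was within it. Its log2 fold change of 0.16 had a 95% interval from -0.14 to 0.46 and did not pass the test (limma adjusted p = 0.528). Part of the Irf9 value is listed jointly with Rnf31, which shares 123 exonic bases on the same strand (Irf9, ENSMUSG00000002325, chr14:55603571-55610030).

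Irf1, a rapidly induced activator in the interferon gamma response, was lower in every lasered library. Unlasered libraries had 172, 172 and 151 CPM, whereas lasered libraries had 119, 118, 132 and 127 CPM. The groups did not overlap, a pattern that 10.7% of all tested genes showed in this direction and 10.4% in the direction of Irf7. Mean levels were 165 ± 12.1 and 124 ± 6.7 CPM (SD, n = 3 and 4), and the log2 fold change of -0.41 ± 0.11 (SE) had a 95% interval from -0.67 to -0.15. At an unadjusted p of 0.00561 and a limma adjusted p of 0.0661, Irf1 missed the threshold. It passed with DESeq2 on the recovered reads (adjusted p = 0.0283) and without unlasered library 3 (adjusted p = 0.0387), out of 18 alternatives whose adjusted p ranged from 0.0283 to 0.427. Irf1 (ENSMUSG00000018899, chr11:53770014-53778374, plus strand) shares 135 exonic bases with Gm17334 on the other strand.

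Irf2, the counterpart of Irf1 that mainly represses, had 120.4, 94.9 and 129.5 CPM without laser and 129, 140.3, 121 and 100.2 CPM after laser. The ranges overlapped, and unlasered library 2 was the lowest of all. The log2 fold change was 0.10 with a 95% interval from -0.27 to 0.46 (limma adjusted p = 0.774). Within each library, the ratio of Irf1 to Irf2 per kilobase of exon was 2.66, 3.37 and 2.17 without laser and 1.71, 1.56, 2.02 and 2.35 after laser, a ratio chosen after the values had been seen. The log2 ratio differed by -0.51, and the groups overlapped (two-sided exact permutation test, p = 0.114, adjusted p = 0.114 over 2 ratios, where 0.0571 is the smallest p the design allows). Irf2 (ENSMUSG00000031627, chr8:46739732-46847458, plus strand) has 3 gene models on the other strand within its span, none of which shares exonic bases with it.

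Irf5, which drives cytokine genes such as those of interleukin 6 and interleukin 12, had 210.3, 173 and 224 CPM without laser and 199, 231, 185 and 183 CPM after laser. No library stood apart in either group. The log2 fold change of -0.02 had a 95% interval from -0.33 to 0.29 (limma adjusted p = 0.954), and its sign turned to 0.06 with median-of-ratios scaling. Irf5 (ENSMUSG00000029771, chr6:29526625-29541871, plus strand) shares 411 exonic bases with Tnpo3 on the other strand, the longest such overlap in the family.

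Irf4, the close relative of Irf8 that acts in lymphocytes, dendritic cells and alternatively activated macrophages, was the lowest member. It had 16.2, 17.3 and 25.1 CPM without laser and 25.6, 17.8, 19.7 and 22.3 CPM after laser. The highest unlasered library and the highest lasered library were almost level. Its log2 fold change was 0.14 with the widest interval of the 7 members that did not pass, -0.31 to 0.59 (limma adjusted p = 0.741). Irf4 (ENSMUSG00000021356) lies at chr13:30749226-30766976 on the plus strand.

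Per kilobase of exon, which allows levels of different genes to be compared, Irf8 and Irf5 led the family without laser. Mean levels were 72.1 CPM per kilobase for Irf8 and 69.6 for Irf5, with overlapping ranges and an order that turned when medians were used. Irf1 followed at 41.5, Irf9 at 22.3, Irf7 at 20.3, Irf2 at 15.5, Irf3 at 8.52 and Irf4 at 3.99 CPM per kilobase. Apart from Irf8 and Irf5, the only neighbours in this order whose library ranges overlapped were Irf9 and Irf7. After laser Irf7 stood at 72.7, Irf8 at 70.4 and Irf5 at 68.6 CPM per kilobase, and neither pair of neighbours differed beyond the spread between libraries. The other members kept their order, Irf1 at 31.1, Irf9 at 25.1, Irf2 at 16.6, Irf3 at 8.95 and Irf4 at 4.36 CPM per kilobase. The place of Irf7 depended on its length. The union of its annotated exons covers the whole gene, 3776 bases, and with the principal transcript of 1916 bases, a length chosen after the values had been seen, Irf8 was first and Irf7 second after laser, while without laser Irf2 moved above Irf7. The closeness of Irf8 and Irf5 depended on length too. Per kilobase of principal transcript, Irf8 had 179 and Irf5 90.2 CPM without laser, and 174 and 88.9 CPM after laser. The shares below use the union of exons.

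The make-up of the family changed accordingly. Irf7 made up 8.04 ± 1.12% of the summed CPM per kilobase of the 8 genes without laser (SD, n = 3) and 24.2 ± 4.14% after laser (SD, n = 4). Over the same libraries the share of Irf1 went from 16.4 ± 1.55% to 10.5 ± 1.2%, that of Irf5 from 27.4 ± 2.7% to 23 ± 1.39% and that of Irf8 from 28.4 ± 0.483% to 23.8 ± 4.01%. Shares of 1 total are not independent, and a rise of 1 member lowers those of the others. In CPM, the 8 genes together summed to 1273.2, 1185.8 and 1250.8 without laser and to 1440.7, 1462.9, 1347.4 and 1364.9 after laser, so that every lasered sum was above every unlasered one. Of all tested genes, 10.4% showed such a pattern in this direction. The sum includes Irf7, at 70.9 to 85.5 CPM without laser and 206 to 337 CPM after laser, the 1 member of 8 past the threshold. Irf1 was lower in every lasered library, so the higher sum is not a rise of every member. The ratio of Irf7 to Irf8 per kilobase was 0.25, 0.327 and 0.273 without laser and 1.36, 1.27, 0.939 and 0.661 after laser. This ratio too was chosen after the values had been seen. Its log2 value differed by 1.85 with no overlap (two-sided exact permutation test, p = 0.0571, which no 3 against 4 libraries can undercut, and adjusted p = 0.114 over 2 ratios).

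**Figure D3:**
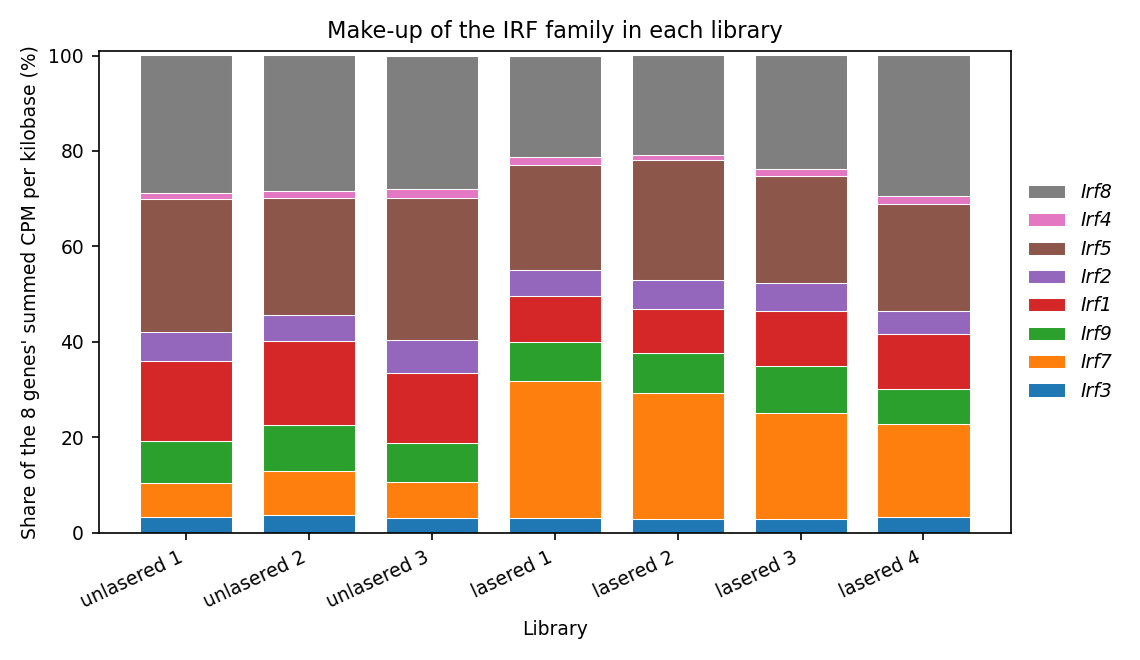
Share of each IRF gene in the summed CPM per kilobase of exon of the 8 genes, in percent, 1 bar per library. The Irf7 segment covers 7.21 to 9.32% in the unlasered bars and 19.5 to 28.7% in the lasered bars, and Irf4 is the narrowest segment in all 7.

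Genes that work with the IRFs were read from 8 lists. Among the 139 distinct genes tested, 19 were higher and 0 lower after laser, 13.7% against 6.93% of all tested genes, and the median log2 fold change was 0.24 against -0.01 over all tested genes. At an unadjusted p under 0.05, 46 were higher and 7 lower in limma, beside 3963 of all 17496 tested genes in either direction. At an adjusted p under 0.05, 3 (Il15, P2ry12 and Traf6, named after their values were seen) were lower with DESeq2 and 0 with edgeR. The lists were compiled with earlier results of these data known, so their counts are descriptions.

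Partner factors of the IRFs did not pass the test in any of the 17 genes tested, with a median log2 fold change of 0.19. DESeq2 and edgeR also called 0. In limma, 1 gene had an unadjusted p under 0.05, beside 3963 of all 17496 tested genes. Leaving out 1 library ended the count of 0 in limma, since 3 genes (Ikzf1, Etv6 and Runx1, named after their values were seen) were then higher without unlasered library 3, and 1 gene was higher without lasered library 4. Mef2c, a microglial transcription factor, had 824 ± 179 and 673 ± 56.2 CPM (SD, n = 3 and 4, log2 fold change -0.27, limma adjusted p = 0.332). Spi1, which encodes PU.1, had 364 ± 17.1 and 337 ± 33.2 CPM (log2 fold change -0.12, adjusted p = 0.611).

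Upstream of the IRFs, 1 of 25 tested sensors, adaptors and kinases rose (4%, against 6.93% of all tested genes called) and the median log2 fold change was 0.24. That gene was Ifih1, which encodes the cytoplasmic sensor of double-stranded RNA MDA5. It had 34.9, 40.5 and 44.6 CPM without laser and 85.5, 70.9, 75.2 and 63.2 CPM after laser, with no overlap (log2 fold change 0.86 ± 0.15, limma adjusted p = 0.016), and did not pass without lasered library 1 (adjusted p = 0.0503) or 2 (adjusted p = 0.054). Unc93b1, the chaperone that carries nucleic acid receptors to the endosome, was the most abundant gene of this list and had 779.7 ± 18.5 and 943 ± 98.3 CPM (SD, n = 3 and 4, adjusted p = 0.199). Tlr7, an endosomal receptor for single-stranded RNA upstream of Irf5 and Irf7, had 339 ± 94.5 and 349.9 ± 44.8 CPM (adjusted p = 0.863).

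Of the interferons, their receptors and the JAK-STAT pathway, 1 of 16 tested genes rose (6.25%, against 6.93% of all tested genes), with a median log2 fold change of 0.14. Socs3, an inhibitor of cytokine signalling, had 68.4, 59.9 and 92.3 CPM without laser and 164, 166, 126 and 134 CPM after laser, without overlap (log2 fold change 1.01 ± 0.18, limma adjusted p = 0.016), and did not pass without lasered library 2 (adjusted p = 0.0562). Ifngr1, the ligand-binding chain of the interferon gamma receptor, had 1317.1 ± 108 and 1247.2 ± 169 CPM (SD, n = 3 and 4, adjusted p = 0.752). Ptpn6, a phosphatase that dampens this signalling, had 497 ± 32.5 and 531 ± 85.8 CPM (adjusted p = 0.782). Ifnb1 had 0 reads in all 7 libraries. The ligand genes Ifna2 and Ifng and the receptor gene Ifnlr1 did not pass the filter on low values, and Ifnlr1 reached 1.36 CPM in lasered library 1.

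**Figure D4:**
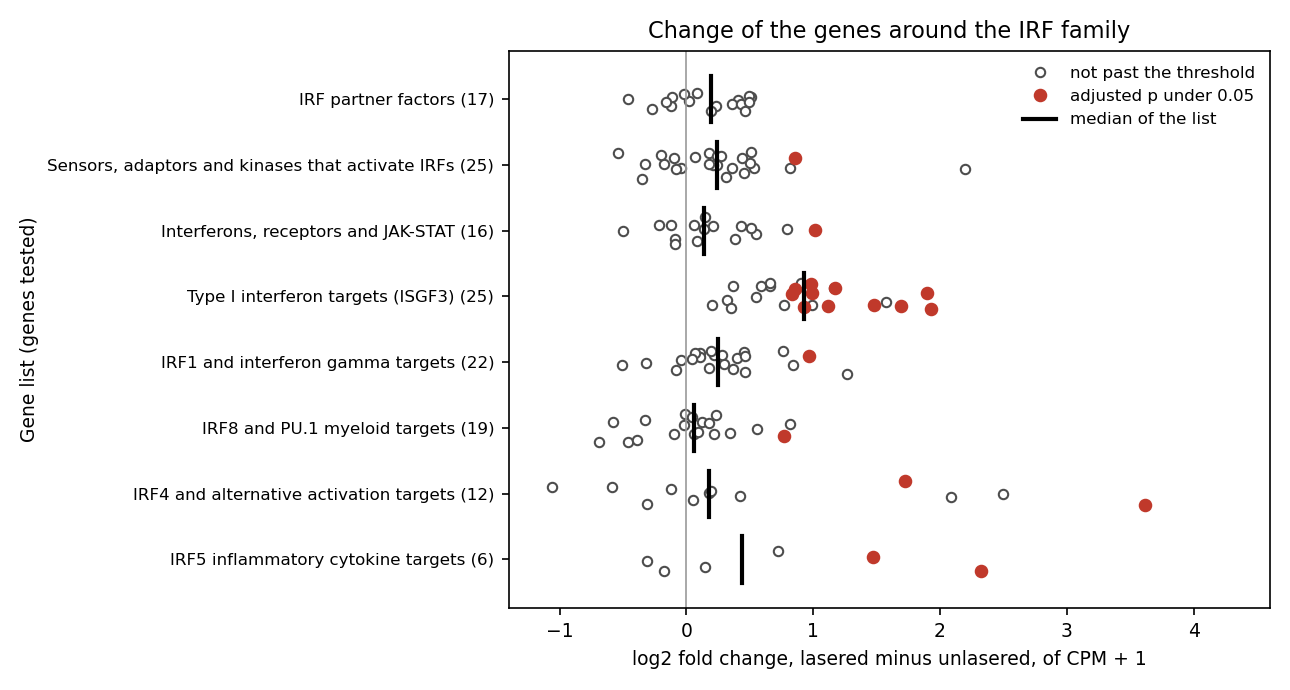
Log2 fold change, lasered minus unlasered, of each tested gene in 8 lists around the IRF family, with genes past an adjusted p of 0.05 in red and the median of each list as a black bar. The type I interferon targets lie furthest to the right as a list, with a median of 0.93 and all 25 genes above 0, whereas the other medians lie between 0.06 and 0.44.

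Targets of ISGF3 were the list with the most genes past the threshold. Of 25 tested type I interferon targets, 11 rose and 0 fell, 44% called against 6.93% of all tested genes. At an unadjusted p under 0.05 in limma, 19 rose and 0 fell, beside 3963 of all 17496 tested genes in either direction. All 25 had a log2 fold change above 0, from 0.20 to 1.93 with a median of 0.93. Isg20, an exonuclease that degrades viral RNA, had 5.14, 4.03 and 4 CPM without laser and 20.3, 23.2, 12.4 and 11.9 CPM after laser (log2 fold change 1.69 ± 0.26, limma adjusted p = 0.0106). Zbp1, a sensor of Z-form nucleic acid, had 34, 31.9 and 46.3 CPM without laser and 146, 123, 97.2 and 68.5 CPM after laser (1.48 ± 0.25, adjusted p = 0.0147). Ifi27l2a, a small interferon-induced protein, had 46.6, 48.7 and 28.6 CPM without laser and 250.2, 215, 122 and 91 CPM after laser (1.93 ± 0.35, adjusted p = 0.0168). All 3 genes had no overlap between the groups and shared with Irf7 the higher values in lasered libraries 1 and 2. Ifit3b had 135, 107 and 96.9 CPM without laser and 247, 223, 256 and 169.7 CPM after laser (0.98 ± 0.18, adjusted p = 0.0173), with lasered library 3 the highest. Ifit3, which like Ifit3b encodes a binder of viral RNA complexes, went from 203 ± 33 to 364 ± 69.6 CPM (SD, n = 3 and 4, log2 fold change 0.83, adjusted p = 0.0336), and because Ifit3 and Ifit3b are near-identical copies the reads of each are uncertain. Rtp4, an abundant target, had 223 ± 45.9 and 284 ± 48.3 CPM (adjusted p = 0.306).

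The count of type I interferon targets, 11, depended on single libraries and on the test. Without lasered library 1, 2 or 3 it was 4, 1 and 4, without unlasered library 2 it was 5, and with lasered libraries 1 and 2 both left out, a choice made after the data were seen, it was 0. It was 4 when no filter on low values was applied and 17 with DESeq2. In limma, Zbp1 and Ifi27l2a did not pass without lasered library 2 (adjusted p = 0.0536 and 0.0562), Ifit3b without lasered library 1, 2 or 3 (0.0532 to 0.0568) and Ifit3 without any of these or unlasered library 2 or 3 (0.0628 to 0.0943), whereas Isg20 passed whichever single library was left out. With both lasered libraries 1 and 2 left out, none of the named list genes that could still be tested passed, and Ccl22 fell below the filter. Under that same choice, the log2 fold change of Irf7 was 1.52 (limma adjusted p = 0.047).

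ISRE letters were found in the promoters of 10 of the 19 type I interferon targets with a RefSeq entry (52.6%, against 3.99% of all genes with an entry). Of the 11 targets that rose, 9 had an entry and 6 held the letters. The list was made of ISGF3 targets, and ISGF3 acts on the ISRE, so this share describes the list. Ifit1 and Rsad2, which rose and encode antiviral effectors, are shown beside the Irf2 promoter above because they carry the same letters, from chr19:34640765-34640833 (plus strand) and chr12:26456543-26456592 (minus strand). The letters stand here in the reverse complement, TTTCNNTTTC, in capitals.
Ifit1: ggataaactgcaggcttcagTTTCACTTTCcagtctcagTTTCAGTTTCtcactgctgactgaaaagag
Rsad2: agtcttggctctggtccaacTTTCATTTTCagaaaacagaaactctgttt

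**Figure D5:**
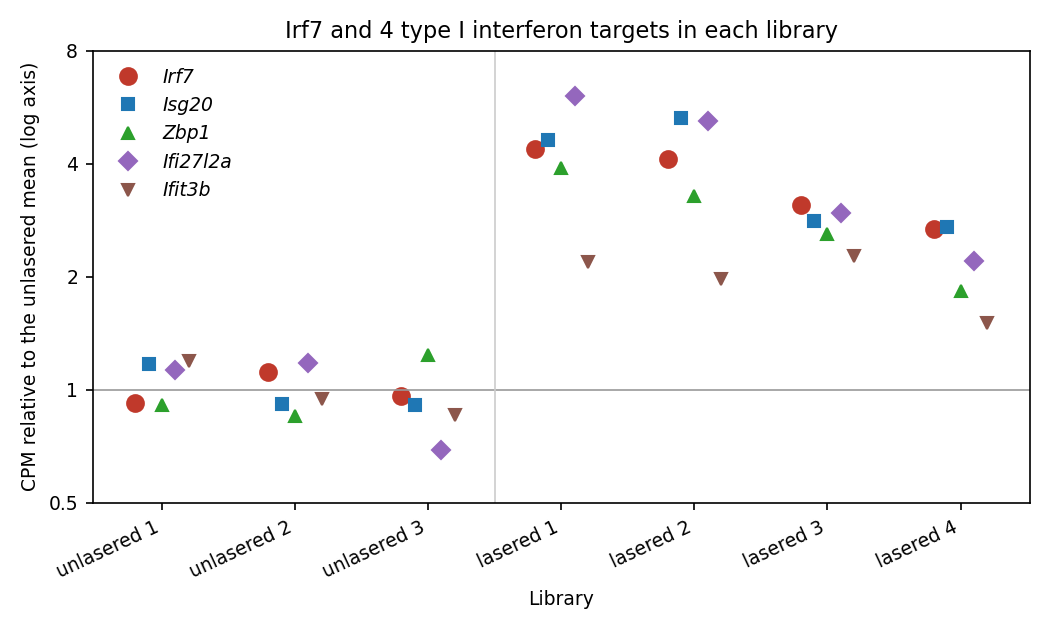
CPM of Irf7 and of the 4 type I interferon targets with the smallest adjusted p, each divided by its own unlasered mean, on a log axis with 1 column per library. In the lasered libraries Irf7 lies at 4.39, 4.11, 3.11 and 2.68 times that mean, and Ifi27l2a spans the widest range, from 2.2 to 6.06 times.

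Among the targets of Irf1 and interferon gamma, 1 of 22 tested genes rose (4.55%, against 6.93% of all tested genes, median log2 fold change 0.25). Tap1, the peptide transporter of antigen presentation, had 53.3, 40.3 and 66.4 CPM without laser and 119, 117, 86.7 and 93.6 CPM after laser (0.97 ± 0.19, limma adjusted p = 0.0245), and did not pass without unlasered library 1 or 2 or lasered library 1 or 2 (adjusted p = 0.0547 to 0.0753). B2m, the light chain of MHC class I, had 1709.3 ± 239 and 1994.4 ± 345 CPM (SD, n = 3 and 4, adjusted p = 0.473) and the peptide-loading factor Tapbp 519.7 ± 38 and 564 ± 72.5 CPM (adjusted p = 0.683).

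Among the myeloid targets of Irf8 and PU.1, 1 of 19 tested genes rose (5.26%, against 6.93% of all tested genes, median log2 fold change 0.06). Cd180, a Toll-like receptor homologue, had 43.9, 31.1 and 48.9 CPM without laser and 82, 69.6, 73.6 and 56.5 CPM after laser (0.77 ± 0.19, limma adjusted p = 0.046), and passed only with all libraries or without unlasered library 3 or lasered library 4 (adjusted p = 0.0818 to 0.127 without any other). Csf1r, the receptor on which microglia depend, had 8301.3 ± 1854 and 8736.5 ± 1192.8 CPM (SD, n = 3 and 4, adjusted p = 0.801). Cst3, a cysteine protease inhibitor, had 8467.6 ± 1876.2 and 6075 ± 812 CPM (log2 fold change -0.46, adjusted p = 0.127, and 0.0466 without unlasered library 3).

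Of the targets of Irf4 and alternative activation, 2 of 12 tested genes rose (16.7%, against 6.93% of all tested genes, median log2 fold change 0.18). Ccl22, a chemokine of dendritic cells and also on the dendritic cell list below, had 0.196, 0.0292 and 0.0555 CPM without laser and 18.1, 36.4, 8.89 and 3.53 CPM after laser (3.62 ± 0.59, limma adjusted p = 0.0132). Ccl22 was under 1 CPM in every unlasered library and passed the filter on low values through lasered libraries alone. Its call could therefore only be higher, here, among all list genes and among the dendritic cell markers. The Ccl22 log2 fold change was 6.07 with a pseudocount of 0.1, 7.64 with edgeR and 7.58 with DESeq2, and with voom (7.15) it did not pass (adjusted p = 0.0694). Socs2, a feedback inhibitor of growth hormone and cytokine receptors, had 0.636, 1.14 and 1.19 CPM without laser and 5.82, 9.27, 6.27 and 2.53 CPM after laser (1.72 ± 0.34, adjusted p = 0.0224). Both were highest in lasered library 2, and Socs2 did not pass without unlasered library 1 or lasered library 1, 2 or 3 (adjusted p = 0.0578 to 0.0645). Mrc1, the mannose receptor, had 621 ± 139 and 413 ± 95.8 CPM (SD, n = 3 and 4, adjusted p = 0.131) and the interleukin 4 receptor chain Il4ra 467 ± 108 and 617 ± 46.8 CPM (adjusted p = 0.139, and 0.024 without unlasered library 3).

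Inflammatory cytokine targets of Irf5 rose in 2 of 6 tested genes (33.3%, against 6.93% of all tested genes, median log2 fold change 0.44), both of them chemokines. Ccl4 had 12, 9.67 and 9.11 CPM without laser and 24.1, 33.9, 37.3 and 26.1 CPM after laser (1.47 ± 0.20, limma adjusted p = 0.00749). Ccl5, also a known target of interferon-activated factors, had 2.59, 5.93 and 2.55 CPM without laser and 30.6, 29.4, 15.5 and 14.6 CPM after laser (2.32 ± 0.34, adjusted p = 0.00947). Il1b had 20.9 ± 1.68 and 24.7 ± 10.2 CPM (SD, n = 3 and 4, adjusted p = 0.793) and Ccl3 27.6 ± 10 and 46.2 ± 15.3 CPM (adjusted p = 0.195). Il6, Il12a, Il12b, Il23a and Ptgs2 were too low to be tested.

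Genes whose pattern over the 7 libraries was nearest were named by the root mean square difference of log2(CPM + 1) around each gene's mean, among 10288 genes with a mean of at least 10 CPM. For Irf7 these were Adgb (0.2), Isg20 (0.2) and the non-coding RNA Zfas1 (0.21). For Irf8 they were Trim5 (0.039), Dph1 (0.049) and Rpn2 (0.051), all of them genes with little difference between the groups. The entries of Adgb, Zfas1 and Dph1 list reads jointly with an overlapping gene, so their patterns may not be those of the named genes. The libraries share their depth and their composition, so the likeness is a description.

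Markers of cell types are given with their summed CPM, and some of these sums differed between the groups. The sum of 14 microglial markers, which include Csf1r, was 36411.5 to 42584.4 CPM without laser and 35097.7 to 43956 CPM after laser, and 0 of its 13 tested genes passed the threshold in limma (5 had an unadjusted p under 0.05), while Sall1, a defining factor of microglia, was at 0 to 1.36 CPM. Dendritic cell markers (9 genes, led by Zbtb46 and Ccr7) summed to 25.2 to 51.2 CPM without laser while lasered libraries 1 to 4 had sums of 168, 209, 56.1 and 42.6 CPM. Of 8 tested, 1 was higher, Ccl22, which passed the filter through lasered libraries alone. The genes of this list did not move alike. Mean Ccr7 went from 1.48 CPM without laser to 37.9 CPM after laser, whereas Zbtb46 had 24.3 and 24.7 CPM and Xcr1 1.84 and 1.1 CPM. Monocyte markers (6 genes, led by Ccr2 and Plac8, 0 of 4 tested past the threshold) summed to 21.7 to 67.5 CPM and to 134, 182, 32.8 and 11.4 CPM. Most of the monocyte sum in lasered libraries 1 and 2 was Ccr2, at 81.5 and 128 CPM. The mean of Plac8 went from 34.1 CPM without laser to 20.3 CPM after laser, and that of Chil3 from 4.67 to 7.06 CPM. The higher sums of both lists fell on the lasered libraries that were also highest for Irf7, and their part in the Irf7 result was not tested. In lasered library 3 the dendritic cell sum was above the unlasered range and the monocyte sum within it, and in lasered library 4 the dendritic cell sum was within its range and the monocyte sum below it.

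The sums of 3 other lists did not overlap between the groups. Rod photoreceptor markers (15 genes, among them Gnat1, 14 of 15 tested lower) summed to 2251.3, 20190.9 and 5780 CPM without laser and to 321 to 1019.7 CPM after laser. Border macrophage markers (7 genes, led by Ms4a7 and Mrc1, 2 of 6 tested lower) summed to 2210.3 to 2757.2 CPM and 1371 to 1591.2 CPM. The study found Mrc1 and its protein CD206 raised in Irf8-deficient retinal microglia, so this sum cannot be assigned to another cell type. Its genes also differed in direction, with means of 1212.3 and 686 CPM for Ms4a7 and 621 and 413 CPM for Mrc1. Those of Cbr2 were 5.55 and 11.9 CPM and those of F13a1 35.3 and 42.9 CPM. Mueller glia markers (7 genes, led by Slc1a3 and Glul, 1 of 6 tested lower) summed to 651 to 945 CPM and 277 to 590.2 CPM. This list was mixed as well. Mean Slc1a3 was 388 CPM without laser and 123 CPM after laser (limma adjusted p = 0.155), and Dkk3, the gene called lower, 204 and 107 CPM. Glul had 174 and 164 CPM (adjusted p = 0.788), and Kcnj10 went up from 1.36 to 2.01 CPM. The part of these 3 lists in the Irf1 and Irf7 results was not tested. Lymphocyte, neutrophil, pigment epithelial and endothelial markers overlapped between the groups. B cell markers summed to 16.3 to 26.9 CPM and 20.4 to 23.6 CPM, led by Cd79b and Cd79a, T and NK cell markers to 0.528 to 2.06 CPM and 1.63 to 3.92 CPM, led by Klrb1c and Ncr1, and neutrophil markers to 0.526 to 11.1 CPM and 0.619 to 8.24 CPM, led by S100a8 and S100a9. Pigment epithelial markers summed to 4.16 to 5.73 CPM and 2.44 to 6.79 CPM, led by Best1 and Rgr, and endothelial markers to 16 to 58.9 CPM and 13.7 to 30 CPM, led by Pecam1 and Kdr. Cd3e, Mpo and Cldn5 had fewer than 3 reads in every library.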

How the data were processed

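Before deposit, the authors trimmed adapters (cutadapt), took out duplicate reads (FastUniq), aligned the rest with bowtie2, which makes no spliced alignments, and used HTSeq to count reads per gene in Ensembl version 90. The submitters' processing notes also name FastQC, DESeq2 and the build GRCm38. The deposited values are headed TPM but are CPM: in each library 100% of values were whole multiples of 1 step, within 0.05 reads, whatever the gene's length, and the whole reads recovered from the steps were used in count tests. They were otherwise used as they stand, and 4492 of 40743 entries list reads jointly with an overlapping gene. The 3 unlasered and 4 lasered libraries were grouped by their titles. Genes reaching 1 CPM in 3 or more libraries were tested on log2(CPM + 1) with limma 3.58.1 (trend and robust, two-sided, Benjamini-Hochberg over 17496 genes) in R 4.3.3, a script tested on simulated data. Count tests on recovered reads were alternatives, and edgeR 4.0.16 called 1283 genes. Other alternatives were DESeq2 1.42.0, voom, other scalings, filters and a pseudocount of 0.1, thinned reads, a replicate block, each library left out and thresholds adapted from the study's methods. Lengths, positions and overlaps are from GENCODE M21 (GRCm38), where 40421 genes (99.2%) were matched, and promoters from RefSeq. The members, gene lists, markers and alternatives were chosen with earlier results of these data known. All members were named. Of each list, the genes past the threshold (at most 4 by adjusted p in each direction) and the 2 highest by mean were named, for Irf8 and Irf7 the 3 nearest patterns, and of each marker list the 2 highest, except that some genes of these lists are not reported here. Ifit1, Rsad2, Il15, P2ry12, Traf6, Sall1, Ifnlr1, Xcr1, Dkk3, Kcnj10 and the markers under 3 reads were added after their values were seen.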

Additional observations from a re-analysis of the deposited data

Results flagged for a closer look

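Among 47 levels tested over the 4 lasered libraries (the members, the named list genes and the marker sums), 3 had a single library far from the others, where chance gives about 1 in 20. Irf8 was at 582 CPM in lasered library 4 and at 463 to 475 CPM in the other 3, a gap of 0.897 of the whole range and past Dixon's critical value. Tapbp was at 455 CPM in lasered library 3 and at 594 to 608 CPM in the others (0.906 of the range). The pigment epithelial markers summed to 2.44 CPM in lasered library 3 and to 6.09 to 6.79 CPM in the others (0.838 of the range).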

How the results depend on the processing

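The log2 fold change of Irf7 ranged from 1.52 to 1.93 over 18 alternatives and passed in 17. The replicate block ended its call (1.93, adjusted p = 0.0708); with it 3 genes and 0 list genes passed. Same-numbered libraries did not deviate together (correlations -0.183, -0.126 and -0.023), and not every library correlated best with its own number. With 3 and 4 libraries, these correlations cannot show whether the numbers pair the samples, and the labels do not say. Genes changed, 1213, became 385 without a filter, 2318 with DESeq2, 54 by the study's thresholds and 24 with lasered libraries 1 and 2 both left out. Leaving out 1 library gave 264 to 1248: 774 and 663 without unlasered 1 and 2, and 417, 264, 436 and 797 without lasered 1 to 4. List genes passing, 19, became 9 without a filter, 35 with DESeq2, 1 by the study's thresholds and 0 with lasered libraries 1 and 2 both left out. Leaving out 1 library gave 4 to 30: 11 without unlasered 2 and 8, 4, 10 and 30 without lasered 1 to 4. Irf1 passed with DESeq2 (-0.41) and ranged from -0.47 to -0.38 with 1 library left out. With 1 library left out, Irf2 ranged from -0.04 to 0.19, Irf5 from -0.13 to 0.06 and Irf8 from -0.12 to -0.01. Median-of-ratios scaling turned Irf5 to 0.06 and Irf8 to 0.04, the block turned Irf5 to 0.02, and leaving out both lasered libraries turned Irf2 to -0.05 and Irf8 to 0.05. It also turned Ifngr1 to 0.07 and Il1b to -0.3. With 1 library left out, Csf1r ranged from -0.02 to 0.26, Il1b from -0.08 to 0.31 and Tlr7 from -0.13 to 0.27. Where fewer samples or more tested genes do not show it by construction, the cause was not tested. Median-of-ratios scaling moved the median of all tested genes from -0.0142 to 0.0593. Counts for reads listed for 1 gene alone were not run, since each entry holds a single sum. Depth did not limit the members, which had at least 331 reads per library.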
